A study of Homo sapiens with 12 samples.

Results

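Antibody genes and the machinery of V(D)J recombination were followed on 12 Affymetrix arrays of Z-138 and Maver-1, 2 human lines of mantle cell lymphoma. The 8 genes, of 19775 that the array measures by a probe set of 1 symbol, were IGKC, IGHM, IGHD, JCHAIN, VPREB3, RAG1, RAG2 and DNTT, and their probe sets were taken from the platform annotation by gene symbol. Of 54675 probe sets, 26 named 1 of these genes alone, and 17 of the 26 had a mean signal of at least 12.55 over the arrays and entered the tests. Another 42 probe sets named 1 of them among several symbols. They are reported apart, and 12 of them entered the tests. Mantle cell lymphoma is a tumour of mature B cells, and the study asked how it responds to knockdown of MAP3K14, the gene of NIK, the kinase at the head of alternative NF-kB signalling. Both lines are established cell lines. Per the labels, Z-138 carries a TRAF2 nonsense change and Maver-1 a TRAF3 deletion in the pathway of NIK. Every culture was kept in puromycin to select for its doxycycline-inducible hairpin, and spent 7 days in 100 ng/ml doxycycline or in none.

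The 12 arrays fell into 8 groups. In each line, NIKsh with doxycycline and NIKsh without it held 2 arrays, 1 for each of the hairpins NIKsh#1 and NIKsh#2 against MAP3K14. In each line, NTC with doxycycline and NTC without it, which carried a non-targeting hairpin, held 1 array. Nothing in the labels gives a repeat culture of any hairpin, so p-values measure the spread between these 6 cultures. Where doxycycline effects were fitted per line, it is the spread between the 4 NIKsh cultures alone. For the untreated lines it is the spread among cultures within each line, which does not cover variation between lines.

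B cells build each antibody gene by joining V, D and J segments. RAG1 and RAG2 together form the recombinase that cuts the DNA beside the segments, DNTT (terminal deoxynucleotidyl transferase) adds untemplated nucleotides at the joints, and proteins of non-homologous end joining seal the breaks. IGHM and IGHD encode the constant regions of the mu and delta heavy chains, and IGKC that of the kappa light chain. JCHAIN links units of secreted IgM and IgA, and VPREB3 is a protein of B cell precursors that binds immunoglobulin chains in the endoplasmic reticulum. RAG1, RAG2 and DNTT are known from lymphoid precursors and are largely silent in mature B cells, which display a finished antibody made of heavy chains and, as a rule, of either kappa or lambda light chains.

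In the RefSeq annotation of GRCh38.p14, RAG1 lies on chromosome 11 from 36510353 to 36579762 on the plus strand and RAG2 on the same chromosome from 36590996 to 36598236 on the minus strand, 11233 bases apart and facing each other. VPREB3 lies on chromosome 22 from 23752743 to 23754425 on the minus strand, DNTT on chromosome 10 from 96304434 to 96338564, and JCHAIN on chromosome 4 from 70655541 to 70666508. The constant regions IGHM and IGHD lie on chromosome 14, from 105851966 to 105856217 and from 105838401 to 105845677, and IGKC on chromosome 2 from 88857361 to 88857683. Sequence upstream of the RefSeq start was at hand for 5 of the 8 genes. For RAG1 that is the start of a span of 69410 bases, and which start the measured transcripts used was not tested. The 250 bases upstream of the RefSeq start are shown for RAG1 and RAG2, whose signals were both lower in Z-138, and for VPREB3, which alone among the 5 held the octamer of immunoglobulin promoters. They are at chr11:36510103-36510352, plus strand, for RAG1, chr11:36598237-36598486, minus strand, for RAG2 and chr22:23754426-23754675, minus strand, for VPREB3. Each is written 5′ to 3′ in its gene's direction, with matches to the searched motifs in capitals.
RAG1: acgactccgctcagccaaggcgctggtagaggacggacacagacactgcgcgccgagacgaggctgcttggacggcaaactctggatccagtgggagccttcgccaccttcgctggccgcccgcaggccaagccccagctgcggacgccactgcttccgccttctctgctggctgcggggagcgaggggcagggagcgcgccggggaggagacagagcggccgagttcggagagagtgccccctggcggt
RAG2: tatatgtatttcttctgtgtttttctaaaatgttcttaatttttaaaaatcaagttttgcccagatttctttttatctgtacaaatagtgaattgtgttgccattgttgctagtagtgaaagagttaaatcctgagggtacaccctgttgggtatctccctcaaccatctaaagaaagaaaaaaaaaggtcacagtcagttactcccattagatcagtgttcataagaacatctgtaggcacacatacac
VPREB3: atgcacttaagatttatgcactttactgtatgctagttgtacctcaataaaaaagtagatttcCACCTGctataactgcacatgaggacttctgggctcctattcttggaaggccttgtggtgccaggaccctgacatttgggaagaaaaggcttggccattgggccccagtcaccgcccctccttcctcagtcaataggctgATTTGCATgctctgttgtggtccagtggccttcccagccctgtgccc
A set of 3 motifs was searched on both strands: the octamer ATGCAAAT, the E-box CAGGTG and the NF-kB consensus. The VPREB3 window held the octamer, as ATTTGCAT, from 47 to 40 bases before the start and the E-box, as CACCTG, from 187 to 182 bases before it. The DNTT window held the E-box from 75 to 70 bases before its start, and the RAG1, RAG2 and JCHAIN windows held none of these letters. Of 35116 RefSeq windows of this length, 1.63% held the octamer, 17.5% the E-box and 9.96% the NF-kB consensus. G and C made up 70.0% of the RAG1 window, 34.0% of that of RAG2 and 50.0% of that of VPREB3, against a median of 58.0% over all windows.

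The deposited signals are linear array units on a common scale, with array medians from 10.6 to 14.1 and highest signals from 6463.4 to 8301.6. MAP3K14, measured by 1 probe set (205192_at), had 33.3 with doxycycline against 55.2 without it in Z-138 NIKsh#1, 49.2 against 52.0 in Z-138 NIKsh#2, 63.4 against 86.9 in Maver-1 NIKsh#1 and 55.7 against 79.3 in Maver-1 NIKsh#2. In NTC it had 55.4 with doxycycline against 46.4 without it in Z-138, and 132.7 against 77.2 in Maver-1. It was lower with doxycycline in all 4 NIKsh cultures and higher in both NTC cultures, and the NIKsh difference of -0.42 ± 0.18 (log2 ± SE of the limma fit) did not pass (adjusted p = 0.607). The 5 measured B cell markers (MS4A1, CD79A, CD79B, PAX5 and CD22) were at or above 12.55 in median in both lines. So were SDC1, TNFRSF17, PRDM1 and CD38, which mark plasma cells, with the plasma cell sum at 4175.4 to 6159.7 in Z-138 and 2789.8 to 3428.2 in Maver-1. Of the mantle cell lymphoma markers, CCND1 and SOX11 were high in both lines and CD5 was near 0 in Z-138 (median 0.85) and measurable in Maver-1 (median 40.3). Of 6 T cell markers, CD3G was above 12.55 in Z-138 (median 124.6) and none was in Maver-1. Of 3 monocyte markers LYZ alone reached 12.55, with a median of 12.85 on Z-138 arrays against 16.3 on Maver-1 arrays, and of 4 fibroblast and epithelial markers COL1A1 was above it in both lines and EPCAM and KRT18 in Maver-1.

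The ACTB 3′ to 5′ ratio (the signal at the 3′ end of the beta-actin mRNA over that at its 5′ end), which reflects RNA quality, moved with both kinds of comparison. In Z-138 it was 4.62 with doxycycline against 2.86 without it in NIKsh#1, 5.09 against 2.92 in NIKsh#2 and 6.34 against 2.33 in NTC. In Maver-1 it was 4.32 against 4.68 in NIKsh#1, 3.80 against 3.66 in NIKsh#2 and 4.43 against 6.88 in NTC. Among untreated arrays the Z-138 ratios therefore all lay below those of Maver-1, and results are given below with this ratio as a covariate too.

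The first comparison set untreated Z-138 against untreated Maver-1, with 3 cultures each. RAG1 and RAG2 were far lower in Z-138, kappa light chain was abundant in Z-138 and near the bottom of the scale in Maver-1, and mu heavy chain and JCHAIN were abundant in both lines. In limma, 15 of the 17 probe sets differed (adjusted p under 0.05), 5 of them higher and 10 lower in Z-138. The background was high, since 52.9% of all 27856 tested probe sets passed in this comparison, 25.8% higher and 27.1% lower in Z-138. The median absolute difference was 1.44 on the log2(signal + 3) scale, against 0.44 over all tested. On this scale differences of low signals are understated. Over all 12 arrays the 6 Z-138 and the 6 Maver-1 values did not overlap for 10 of the 17, against 30.9% of all probe sets. Probe sets such as those of RAG2 and IGKC were near the bottom of the scale in 1 line and passed the filter through the other, so this median and this count only describe the 17. In bulk RNA, fewer cells that carry a transcript and less of it per cell cannot be told apart.

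RAG1 was lower in Z-138 by both its probe sets. Its brighter probe set (206591_at) had 11.2, 14.6 and 9.1 in untreated Z-138 NIKsh#1, NIKsh#2 and NTC, against 371.3, 316.5 and 222.9 in the Maver-1 cultures. All 3 untreated Z-138 values lay near the filter signal of 12.55, and the difference was -4.38 ± 0.22 (log2 ± SE, adjusted p = 1.68e-08). With Z-138 this close to the bottom of the scale the size depends on the pseudocount, at -4.58 for 1 and -3.51 for 16, and gives no measured fold. The other probe set (1554994_at) had 5.1, 6.5 and 4.2 in Z-138 against 47.9, 27.3 and 26.2 in Maver-1 (-2.11 ± 0.28, adjusted p = 4.95e-05). For both probe sets the lines did not overlap, on the treated arrays as well.

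RAG2, the partner of RAG1 in the recombinase, followed the same order. Its probe set (215117_at) had 4.6, 8.5 and 5.0 in untreated Z-138 NIKsh#1, NIKsh#2 and NTC, against 137.2, 81.7 and 62.0 in Maver-1, a difference of -3.37 ± 0.29 (adjusted p = 1.77e-06). DNTT separated the lines less. Its probe set 1566363_at had 12.5, 24.3 and 9.4 in untreated Z-138 against 26.5, 16.1 and 17.3 in Maver-1, which overlap (-0.37 ± 0.31, adjusted p = 0.335). The second DNTT probe set (1566362_at) had 7.6, 16 and 3.5 in Z-138 against 28.4, 18.9 and 12 in Maver-1, and it passed narrowly although the groups overlap (-0.99 ± 0.39, adjusted p = 0.0486). The third (210487_at) averaged 6.93 and was not tested. With the ACTB ratio as a covariate the RAG1 difference was -4.68 ± 0.39 for 206591_at and -2.14 ± 0.51 for 1554994_at, and that of RAG2 was -3.69 ± 0.52, all with adjusted p of 0.00808 or less, while 1566362_at of DNTT no longer passed (adjusted p = 0.287). That set also missed the threshold without Z-138 NTC (-0.62, adjusted p = 0.187), Z-138 NIKsh#1 (0.0983), Maver-1 NIKsh#1 (0.184) or Maver-1 NIKsh#2 (0.0901).

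Markers of B cell precursors moved with this difference in part. MME, the surface enzyme CD10, had a median of 2.15 over the Z-138 arrays and 189.7 over the Maver-1 arrays, and VPREB1 had 4.85 and 21.1. IGLL1 was high in both lines, its median being 1624.35 for Z-138 arrays against 1016.85 for Maver-1 arrays, and CD34 was near 1 in each. So 1 of 4 precursor markers was at or above 12.55 in Z-138 and 3 of 4 in Maver-1, and the sum of their signals lay between 1455.0 and 2177.2 on Z-138 arrays, against 952.3 to 1748.9 on Maver-1 arrays. Their part in the RAG1 and RAG2 difference was not tested.

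**Figure D1:**
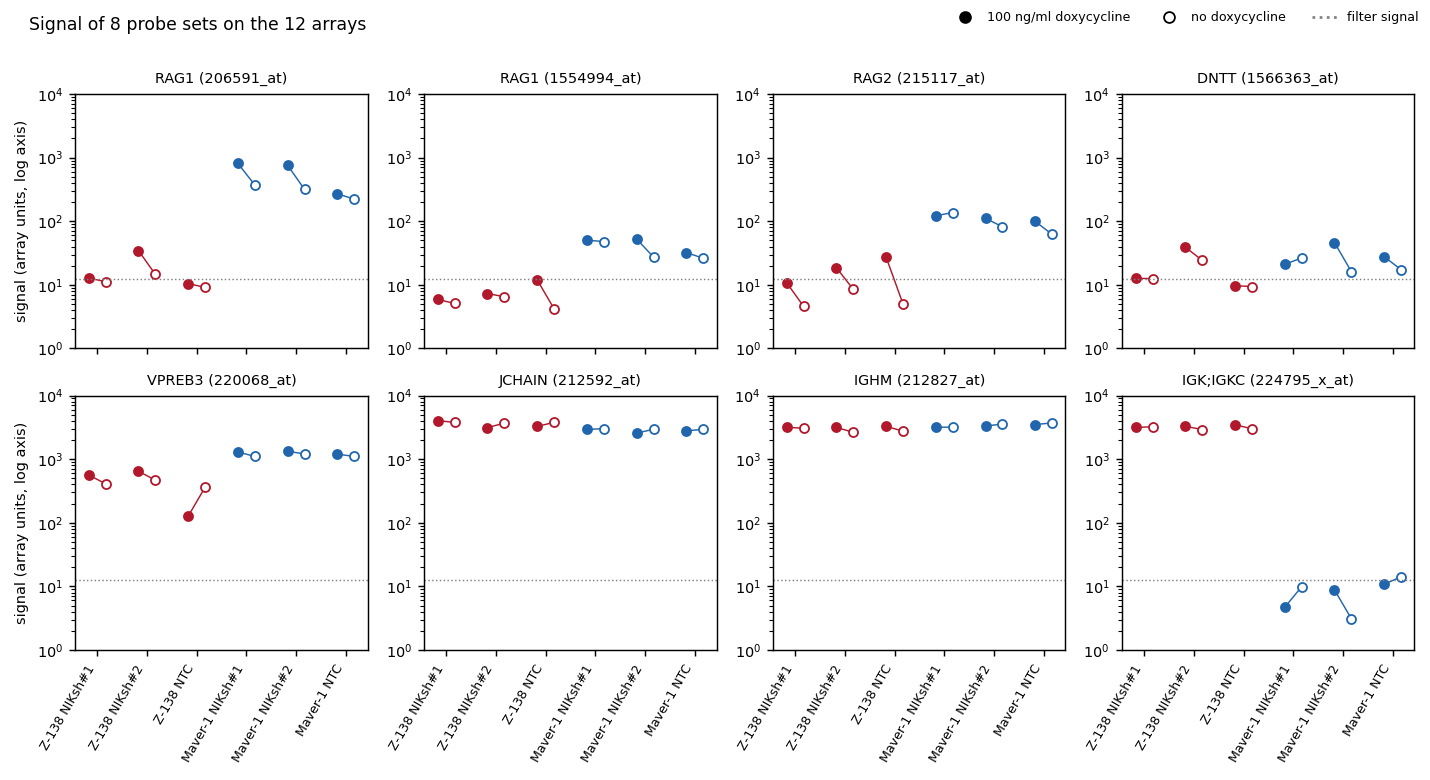
Signal in linear array units on a log axis for 8 probe sets of recombination and antibody genes, by culture, with doxycycline (filled points) left of no doxycycline (open points), Z-138 in red and Maver-1 in blue. The dotted line is the filter signal of 12.55. RAG1 and RAG2 lie higher in Maver-1, kappa (IGK;IGKC) lies between 2921.6 and 3495.3 in Z-138 and at or below 14.2 in Maver-1, and IGHM and JCHAIN are high on every array.

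Kappa light chain signal was high in Z-138 and at the bottom of the scale in Maver-1. The IGKC probe set 214669_x_at had 662.6, 1275.4 and 613.3 in untreated Z-138 NIKsh#1, NIKsh#2 and NTC, against 1.0, 2.9 and 7.3 in Maver-1, and the difference was 7.01 ± 0.34 (adjusted p = 1.18e-08). Its size depends on the pseudocount, at 7.65 for 1 and 5.39 for 16. The other 7 IGKC probe sets averaged between 0.98 and 11.5 and were not tested. The 4 tested probe sets annotated to IGK and IGKC together gave the same picture. One of them (221671_x_at) ran from 2872.0 to 3229.3 over the 6 Z-138 arrays and from 7.2 to 10.6 over the 6 Maver-1 arrays, and its untreated difference was 8.01 ± 0.14 (adjusted p = 1.66e-11). The differences were 8.15 ± 0.21 for 221651_x_at, 8.11 ± 0.29 for 224795_x_at and 5.58 ± 0.22 for 214836_x_at. With the ACTB covariate these 5 kappa differences lay between 5.69 and 9.29.

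Lambda light chain did not mirror this. IGLC1, the constant region of a lambda chain, is no member of the list and was measured by 2 bright probe sets. The first of these (209138_x_at) had 4003.4, 3521.8 and 3725.6 in untreated Z-138 NIKsh#1, NIKsh#2 and NTC, against 4372.8, 4644.9 and 4428.9 in Maver-1 (-0.26 ± 0.06, adjusted p = 0.0026), and the second (214677_x_at) differed by -0.22 ± 0.07 (adjusted p = 0.0118). Lambda signal was therefore high in both lines, with a small difference, while kappa signal was high in Z-138. A dim IGLC1 probe set (216560_x_at) had at most 2.7 in untreated Z-138 against 38.9 to 52.7 in untreated Maver-1 (-3.25 ± 0.24, adjusted p = 4.93e-07). Probe sets whose name ends in _x_at hold probes that can match more than 1 transcript, which is common among immunoglobulin segments.

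The heavy chain probe sets did not share a direction. IGHM was abundant in both lines by its bright probe sets. The set 212827_at had 3066.2, 2633.6 and 2752.8 in untreated Z-138 NIKsh#1, NIKsh#2 and NTC, against 3181.4, 3560.7 and 3716.2 in Maver-1 (-0.31 ± 0.07, adjusted p = 0.00424), and the set 209374_s_at had 2165.6, 1999.7 and 2040.1 against 3496.1, 3669.8 and 3572.1 (-0.79 ± 0.06, adjusted p = 4.02e-07). Both were lower in Z-138, by 1.24-fold and 1.73-fold, without overlap among the untreated arrays. The dim set 211634_x_at ran the other way, with 49.6, 106.0 and 40.6 in Z-138 against 1.2, 0.8 and 3.4 in Maver-1 (3.75 ± 0.35, adjusted p = 3.09e-06). The dim set 215949_x_at was lower in Z-138 (-1.44 ± 0.43, adjusted p = 0.0137). With the ACTB covariate 212827_at and 215949_x_at no longer passed (adjusted p = 0.242 and 0.401).

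Probe sets annotated to delta heavy chain, which mature B cells make beside mu, did not share a direction either. The IGHD set 214973_x_at had 9.0, 8.4 and 6.0 in untreated Z-138 NIKsh#1, NIKsh#2 and NTC, against 1555.4, 1743.6 and 684.1 in Maver-1, a difference of -6.84 ± 0.29 (adjusted p = 4.15e-09), or -7.14 and -5.71 with pseudocounts of 1 and 16. The IGHD set 215621_s_at went the other way, with 285.5, 330.0 and 326.9 in Z-138 against 99.9, 88.2 and 35.9 in Maver-1 (2.15 ± 0.29, adjusted p = 6.52e-05). So 2 sets annotated to the same gene, both above the filter, pointed in opposite directions. The name of 214973_x_at ends in _x_at, so its probes can match more than 1 transcript. Whether its signal came from the delta constant region was not tested. Of the remaining 3, 222285_at was lower in Z-138 (-1.20 ± 0.19, adjusted p = 0.00025), 230877_at was higher by a small amount (0.38 ± 0.13, adjusted p = 0.0289) and 213674_x_at was 0.19 ± 0.14 apart (adjusted p = 0.271). The ACTB covariate left 214973_x_at at -7.85 and took 215621_s_at to 1.03 ± 0.35 (adjusted p = 0.0452), and 230877_at no longer passed (adjusted p = 0.215). The set 230877_at also lost its call with 1 culture left out, in 4 of 6 cases: without Z-138 NTC (adjusted p = 0.0849), Z-138 NIKsh#1 (0.113), Maver-1 NTC (0.0501) or Maver-1 NIKsh#2 (0.11). In all, 11 of the 17 probe sets passed with the ACTB covariate. The share of all probe sets given earlier is without this covariate, so it is no background for this count. The count over all probe sets with the covariate is given with the other settings at the end.

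JCHAIN (212592_at) was among the brightest genes of the list in both lines. It had 3775.5, 3685.0 and 3787.8 in untreated Z-138 NIKsh#1, NIKsh#2 and NTC, against 3018.6, 2954.6 and 2937.0 in Maver-1. The groups do not overlap, and the 1.26-fold higher level in Z-138 passed (0.34 ± 0.05, adjusted p = 0.00015). VPREB3 (220068_at) had 409.0, 468.2 and 361.8 in Z-138 against 1105.2, 1207.5 and 1104.0 in Maver-1. It was 2.76-fold lower in Z-138 without overlap (-1.46 ± 0.11, adjusted p = 3.71e-07), and -1.45 ± 0.19 with the ACTB covariate.

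**Figure D2:**
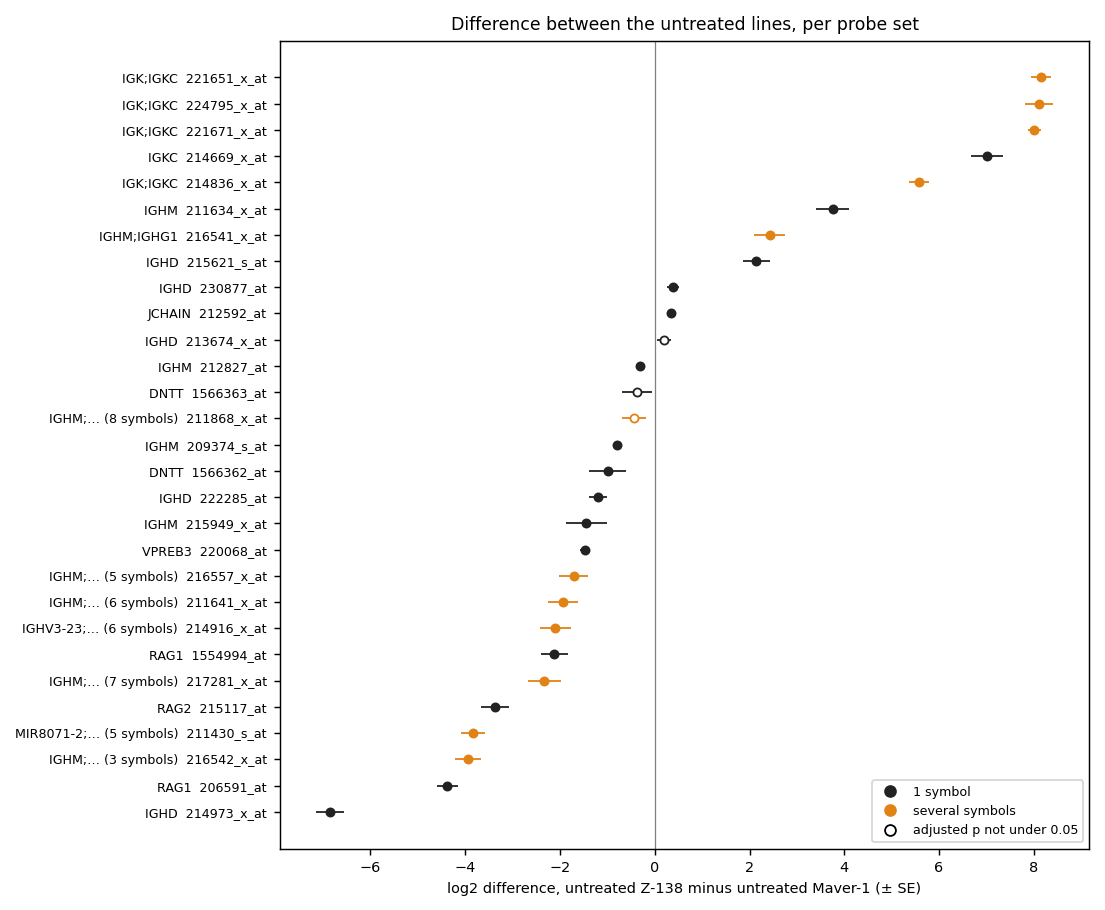
Log2 difference of untreated Z-138 minus untreated Maver-1 with the SE of the limma fit, for the 17 probe sets with 1 symbol (black) and the 12 with several symbols (orange), 3 cultures per line. Open points did not pass at an adjusted p of 0.05. Kappa sets lie at the top. RAG1, RAG2, 1 IGHD set and heavy chain sets with several symbols lie toward the bottom, and IGHM and IGHD sets on both sides of 0.

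Of the 12 tested probe sets with several symbols, 11 differed between the lines, 5 higher and 6 lower in Z-138, against the same 52.9% of all. Most of them, the kappa sets included, were near the bottom of the scale in 1 line and passed the filter through the other. This count therefore only describes the 12. The 5 higher ones were the 4 kappa sets and 216541_x_at (IGHM;IGHG1), which differed by 2.43 ± 0.33 (adjusted p = 7.22e-05). The 6 lower ones were all heavy chain sets that name IGHM with gamma or alpha constant regions. One of them, 216542_x_at (IGHM;IGHG1;IGHA1), had 6.4, 3.8 and 6.2 in untreated Z-138 NIKsh#1, NIKsh#2 and NTC, against 146.4, 162.2 and 82.8 in Maver-1 (-3.94 ± 0.27, adjusted p = 2.26e-07). Such sets cannot be assigned to 1 constant region. With the ACTB covariate 216557_x_at, another of the 6, missed the threshold (-1.56 ± 0.56, adjusted p = 0.0583).

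Other genes of the pathway were described as lists. Of 14 probe sets of other immunoglobulin chains, 3 were higher and 7 lower in untreated Z-138, so 71.4% were called, against 52.9% of all tested. The set 215118_s_at, annotated to IGH, had 23.1, 21.6 and 23.0 in Z-138 NIKsh#1, NIKsh#2 and NTC, against 694.2, 787.2 and 687.1 in Maver-1 (-4.83 ± 0.14, adjusted p = 1.86e-10), and the variable segment IGHV5-78 was lower by 1.54 on the log2 scale as well. The lambda segment IGLV6-57 was higher in Z-138 (2.19 ± 0.21, adjusted p = 4.14e-06). Among 6 probe sets of the surrogate light chain and receptor carriers, 1 was higher and 4 were lower, a share of 83.3%. Some sets of both lists, such as those of IGLL5 and VPREB1, were near the bottom of the scale in Z-138. They passed the filter through Maver-1, so both shares only describe these lists. IGLL1, the surrogate light chain partner of VPREB1, was higher in Z-138 (1.09 ± 0.12, adjusted p = 1.62e-05), while VPREB1 itself was lower (-1.53 ± 0.29). CD79A, a signalling chain of the B cell receptor, was lower by 1 of its 2 sets (-0.51 ± 0.11, 205049_s_at).

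Of 31 probe sets of V(D)J end joining, 11 were higher and 3 lower in Z-138, with a median of 0.19. HMGB1, which helps RAG proteins bind DNA, was higher by 0.71 ± 0.06 (224734_at, adjusted p = 2.4e-06), and so was DCLRE1C, the nuclease Artemis that opens the hairpin ends (0.71 ± 0.12, 222233_s_at), called by 3 of its 5 sets. HMGB1 was called by 4 of its 5 sets. XRCC4, a ligase partner, was called by its dimmest set alone (-0.92 ± 0.20, 210812_at), and its 3 brighter sets did not pass. Of 29 probe sets of class switching and hypermutation, 6 were higher and 9 lower, with POLH, a polymerase of hypermutation, lower by 2 of 5 sets. Of 83 probe sets of transcription regulators, 16 were higher and 28 lower in Z-138. TCF4, an E-box binding protein, was lower by 8 probe sets, from -0.61 to -2.25, and FOXO1, known in mouse B cell precursors as an activator of RAG transcription, was lower by 3 sets (-0.75 ± 0.12 for 202724_s_at, adjusted p = 0.000197). IKZF1, the regulator Ikaros, was higher by 5 of 8 sets, EBF1 by 3 of 4 and PAX5 by its 1 set. FOXP1 was lower by 4 of 8 sets and TCF12 by 3 of 4, and TCF3 was higher by 2 and lower by 5 of 13. The part of these regulators in the RAG1 and RAG2 difference was not tested. Of 27 probe sets of antibody assembly and secretion, 11 were higher and 4 lower. FKBP11, a peptidyl-prolyl isomerase of the secretory pathway, was higher by 3 sets, up to 2.92 ± 0.17, and PRDM1, a plasma cell regulator, was higher by 2 of 3, whereas XBP1, another one, was lower (-0.70 ± 0.08). The share called was 45.2% for end joining, 51.7% for class switching, 53.0% for regulators and 55.6% for assembly, near or below the 52.9% of all tested probe sets. The shares of the other chains (71.4%) and the carriers (83.3%) lay above it, but some sets of both lists passed the filter only through Maver-1. Several sets of 1 gene are counted in each list. With the ACTB covariate the counts higher and lower were 6 and 1 for end joining, 1 and 20 for regulators, 8 and 3 for assembly, 2 and 2 for class switching, 1 and 3 for the carriers and 1 and 5 for the other chains. The 52.9% is without this covariate and is no background for these counts. Fewer of all probe sets passed with it, as given with the other settings at the end.

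The second comparison asked whether doxycycline changed these genes where it induced a hairpin against MAP3K14. No probe set of the list passed in any of the 6 comparisons of doxycycline (limma, 0 of 17 in each). Of the 12 sets with several symbols, 0 passed either. Over the 4 NIKsh cultures 0.00718% of all tested probe sets passed, which is 2 of 27856, and over the 2 NTC cultures and for NIKsh minus NTC 0.0% did. Of the 17, 1 had an unadjusted p under 0.05 in NIKsh, 4 in NTC and 2 for NIKsh minus NTC, and over all tested probe sets 2259, 887 and 1389 did. In Z-138 NIKsh alone 1.02% of all probe sets passed, in Maver-1 NIKsh 0.0% and for the difference of the lines 0.0144%. At an unadjusted p under 0.05 there were 4, 1 and 2 of the 17 in these comparisons, and 4060, 932 and 2014 of all tested. The median change of the 17 over the NIKsh cultures was 0.05, against 0.01 over all tested. Higher signal with doxycycline in all 4 NIKsh cultures was seen in 3 of the 17 (both RAG1 sets and VPREB3), against 10.2% of all probe sets, and lower signal in all 4 in 0 of the 17, against 7.79%. The NIKsh, NTC and per-line comparisons share arrays with their differences. These counts over all probe sets depended on single cultures. The 2 calls in NIKsh became 0 without any 1 culture but Z-138 NTC. In Z-138 NIKsh the 284 calls became 1509 without NIKsh#1 and 585 without NIKsh#2 of Z-138, and 719 and 720 without those of Maver-1. In Maver-1 NIKsh the 0 calls became 34 and 20 without NIKsh#1 and NIKsh#2 of Z-138, and 5 and 2 without those of Maver-1, and the 4 calls of the line difference became 630, 84, 49 and 33 in the same order.

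RAG1 had the largest mean NIKsh change of the 17. The set 206591_at had 810.6 with doxycycline against 371.3 without it in Maver-1 NIKsh#1 and 756.3 against 316.5 in Maver-1 NIKsh#2, and 269.6 against 222.9 in Maver-1 NTC. In Z-138 it had 12.8 against 11.2 in NIKsh#1, 34.5 against 14.6 in NIKsh#2 and 10.5 against 9.1 in NTC. Signal was higher with doxycycline in all 6 cultures, by most in both Maver-1 NIKsh cultures and in Z-138 NIKsh#2. The mean log2 change was 0.90 with an SD of 0.50 over the 4 NIKsh cultures and 0.21 with an SD of 0.08 over the 2 NTC cultures. In limma neither the NIKsh change (0.90 ± 0.21, adjusted p = 0.339) nor its difference from NTC (0.69 ± 0.36, adjusted p = 0.891) passed.

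Within lines, the RAG1 change was 1.18 ± 0.28 in Maver-1 NIKsh (adjusted p = 1.0) and 0.62 ± 0.28 in Z-138 NIKsh (adjusted p = 0.347), and Z-138 minus Maver-1 was -0.56 ± 0.39 (adjusted p = 0.796). The Maver-1 value passed when either Z-138 NIKsh culture was left out, with an adjusted p of 0.0302 without Z-138 NIKsh#1 and 0.0394 without Z-138 NIKsh#2. The change itself stayed at 1.18, while its SE was 0.21 in both fits in place of 0.28, the residual degrees of freedom were 1 in place of 2 and the p-values of all other probe sets differed too. The Z-138 value was 1.09 without Z-138 NIKsh#1 and then passed as well (adjusted p = 0.0357), and 0.15 without Z-138 NIKsh#2. With the ACTB ratio as a covariate it was -1.59 ± 2.42, an error too wide to give a direction. The dimmer set 1554994_at had 50.4 with doxycycline against 47.9 without it in Maver-1 NIKsh#1, 52.7 against 27.3 in NIKsh#2 and 32.2 against 26.2 in NTC. In Z-138 it had 5.9 against 5.1 in NIKsh#1, 7.3 against 6.5 in NIKsh#2 and 12 against 4.2 in NTC, its largest change. Its mean change was thus 0.30 in NIKsh and 0.66 in NTC, and NIKsh minus NTC was -0.36 ± 0.41 (adjusted p = 0.907), opposite in sign to that of 206591_at. The sets correlated at 0.59 over the 12 arrays once each line's mean was removed.

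**Figure D3:**
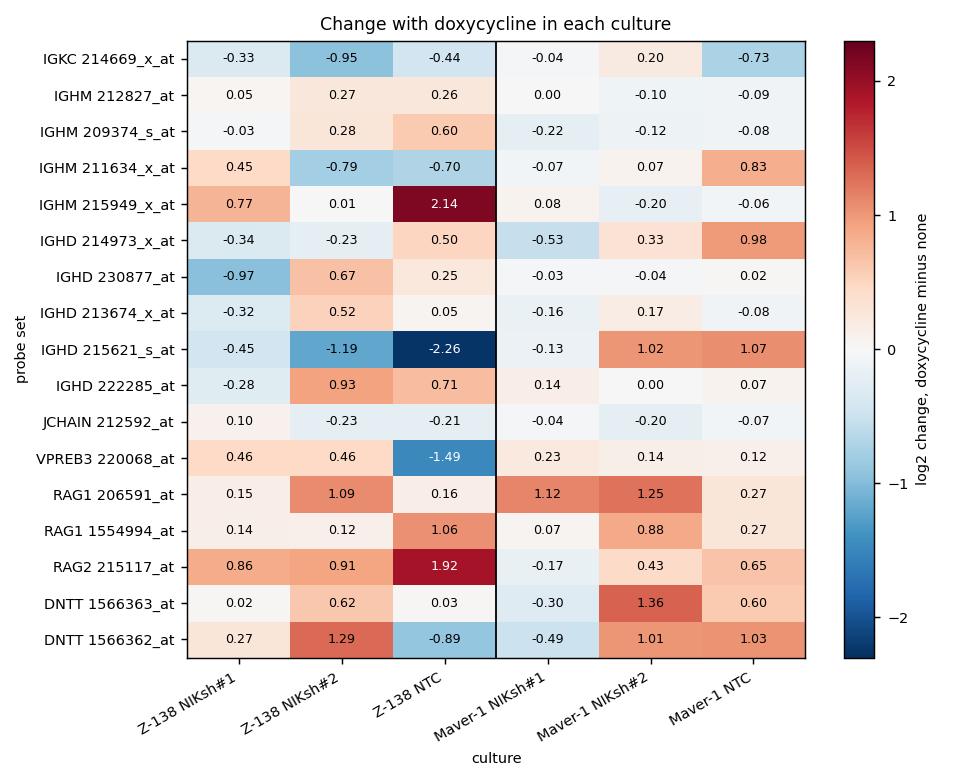
Log2 change of signal + 3 with doxycycline against none in each of the 6 cultures, for the 17 tested probe sets with 1 symbol, Z-138 left of the line and Maver-1 right of it. The RAG1 set 206591_at is above 1 in Z-138 NIKsh#2 and both Maver-1 NIKsh cultures, and the darkest cells, for IGHD 215621_s_at (-2.26) and IGHM 215949_x_at (2.14), are both in Z-138 NTC.

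RAG2 did not share the RAG1 pattern across cultures. It had 121.8 with doxycycline against 137.2 without it in Maver-1 NIKsh#1, 111.4 against 81.7 in NIKsh#2 and 99.3 against 62.0 in NTC. In Z-138 it had 10.8 against 4.6 in NIKsh#1, 18.6 against 8.5 in NIKsh#2 and 27.3 against 5.0 in NTC. The largest change was thus in a culture with the non-targeting hairpin, and the mean was 0.51 ± 0.26 in NIKsh (adjusted p = 0.683) and 1.29 ± 0.37 in NTC (adjusted p = 0.907). RAG1 and RAG2 correlated at 0.46 within lines over the 12 arrays, as a description. DNTT had 39.1 with doxycycline against 24.3 without it in Z-138 NIKsh#2 and 46.2 against 16.1 in Maver-1 NIKsh#2 (1566363_at), but 12.7 against 12.5 and 21.0 against 26.5 in the NIKsh#1 cultures of Z-138 and Maver-1. Both DNTT sets tested were highest in NIKsh#2 with doxycycline in each line, and their NIKsh changes were 0.43 ± 0.28 and 0.52 ± 0.37 (adjusted p = 0.773 and 0.79).

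VPREB3 had 564.6 with doxycycline against 409.0 without it in Z-138 NIKsh#1, 645.5 against 468.2 in Z-138 NIKsh#2 and 127.3 against 361.8 in Z-138 NTC. In Maver-1 it had 1297.0 against 1105.2 in NIKsh#1, 1331.8 against 1207.5 in NIKsh#2 and 1198.1 against 1104.0 in NTC. It was higher with doxycycline in 5 of 6 cultures, and Z-138 NTC went the other way. The difference of NIKsh minus NTC was 1.01 ± 0.36 (adjusted p = 0.891), and it was 0.21 when Z-138 NTC was left out and 1.81 when Maver-1 NTC was. In Z-138 NIKsh the change was 0.46 ± 0.13 (adjusted p = 0.15).

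Of the abundant antibody transcripts, JCHAIN changed by between -0.23 and 0.10 on the log2 scale in the 6 cultures, and the bright IGHM set 212827_at by between -0.10 and 0.27. The other bright IGHM set, 209374_s_at, changed by between -0.22 and 0.28 in 5 cultures and by 0.60 in Z-138 NTC (3102.4 with doxycycline against 2040.1 without it), and its NIKsh minus NTC difference was -0.28 ± 0.19 (adjusted p = 0.891). The IGKC set 214669_x_at had 528.3 with doxycycline against 662.6 without it in Z-138 NIKsh#1, 659.7 against 1275.4 in NIKsh#2 and 452.3 against 613.3 in NTC. It was lower in all 3 Z-138 cultures, the non-targeting one included, and the Z-138 NIKsh change was -0.64 ± 0.27 (adjusted p = 0.316). The brighter kappa set 221671_x_at, by contrast, changed there by 0.03 ± 0.21 (adjusted p = 0.971). IGHD 215621_s_at had 208.9 against 285.5 in Z-138 NIKsh#1, 142.6 against 330.0 in NIKsh#2 and 65.9 against 326.9 in NTC, again lowest in NTC. Its Z-138 minus Maver-1 difference of -1.27 ± 0.44 (adjusted p = 0.634) passed only without Z-138 NIKsh#1 (-1.64, adjusted p = 0.0474), and IGHD 230877_at passed in Z-138 only without NIKsh#2 (-0.97, adjusted p = 0.0129).

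Of the related lists, calls came in no doxycycline comparison but that in Z-138 NIKsh, where 1.02% of all tested probe sets passed. Of 83 probe sets of regulators, 2 rose and 3 fell. FOXO1 rose by 0.81 ± 0.12 (202724_s_at, adjusted p = 0.0179) and 1.26 ± 0.23 (202723_s_at, adjusted p = 0.0424). Its set 202724_s_at had 1038.2 with doxycycline against 586.1 without it in NIKsh#1, 1132.3 against 654.8 in NIKsh#2 and 336.2 against 483.9 in NTC. IKZF1 fell by 1.42 ± 0.18 (205038_at, adjusted p = 0.0107), with 2 other sets also passing, and 205038_at had 107.5 against 315.6 in NIKsh#1, 177.4 against 444.3 in NIKsh#2 and 572.2 against 272.6 in NTC. Of the other called IKZF1 sets, 205039_s_at (-1.06 ± 0.19, adjusted p = 0.0401) was lower in Z-138 NTC as well, with 941.1 against 1580.0, and 227344_at (-0.89 ± 0.16, adjusted p = 0.0413) had 842.9 against 739.5 there, so the IKZF1 sets differed in NTC. Of 27 probe sets of antibody assembly and secretion, 0 rose and 4 fell, beside the same 1.02% of all. They were both sets of ELL2, an elongation factor known in mouse plasma cells for secretory immunoglobulin mRNA (-2.67 ± 0.20, 226099_at, adjusted p = 0.0012), and both of MZB1, a chaperone of IgM assembly (-1.21 ± 0.14, 221286_s_at, adjusted p = 0.00587). The ELL2 set 226099_at had 66.7 against 388.8 in NIKsh#1, 47.6 against 359.8 in NIKsh#2 and 770.6 against 385.3 in NTC. The dimmer ELL2 set 226982_at (-1.83 ± 0.28, adjusted p = 0.0206) was lower in Z-138 NTC, with 47.0 against 60.7. MZB1 was lower there too, with 579.3 against 1000.8 for 221286_s_at and 404.9 against 643.8 for 223565_at. With the ACTB ratio as a covariate, 0 of these passed and 0 of all 27856 probe sets did. The ratio itself rose with doxycycline in Z-138, from 2.86 to 4.62 in NIKsh#1 and from 2.92 to 5.09 in NIKsh#2. The covariate thus moved with the tested effect and left 1 residual degree of freedom. This fit therefore cannot tell the effect and the ratio apart. The calls of both lists rose in number when a NIKsh culture was left out, as did those over all probe sets given above. Of the end joining, carrier, class switching and other chain lists, 0 probe sets passed in any doxycycline comparison.

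The genes whose signal followed each member most closely over the 12 arrays, after each line's mean was removed, are given as a description. RAG1 (206591_at) was nearest to ZNF333 (r = 0.949), RPAIN (0.936) and TMEM198B (0.924), and RAG2 to TRIM66 (0.928), KRT8 (0.916) and GLCCI1 (0.906). VPREB3 was nearest to GPR18 (0.985), IGSF6 (0.985) and DTX3L (0.983), and JCHAIN to LEPROTL1 (0.956). The nearest genes were PPIP5K1 (0.949) for DNTT, SLC41A2 (0.931) for IGKC, COX7B (0.922) for IGHM and RNF141 (0.952) for IGHD. Among the members themselves the highest value was that of RAG1 and DNTT (0.703), and JCHAIN ran against RAG1 (-0.497), RAG2 (-0.585) and DNTT (-0.594). The arrays of a culture share cells and the values share the array scale, so these correlations carry no test.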

How the data were processed

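Total RNA was amplified and labelled with biotin, per the labels' protocols, and hybridised to 3′ expression arrays. The deposited values are linear signal intensity per probe set, and MAS5 is named in the submitters' processing notes. All arrays had a mean of 150.02 after 2 percent of the probe sets was trimmed from each end, so no further scaling was applied. The file holds no detection calls, and the number of arrays limits precision.

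Symbols follow the platform annotation. Of 54675 probe sets, 41097 had 1 symbol, 1801 several and 11777 were unnamed here, and 62 control probe sets were left out. Signals were taken to log2(signal + 3), where 3 is a pseudocount. Probe sets with a mean signal of at least 12.55, the median of the array medians, were tested (27856). The tests used limma 3.58.1 under R 4.3.3 (trend in variance, two-sided moderated tests, Benjamini-Hochberg over all tested). Culture was a fixed block, since the labels put each construct's cells in both media, and doxycycline effects were fitted per knockdown (4 residual degrees of freedom) or per line and knockdown (2). The deviations of the 2 arrays of a hairpin correlated at -0.125 for Z-138 and at 0.163 for Maver-1, so the data did not show the pairing in Z-138. Untreated lines were compared on 6 arrays. Tested on simulated data, the NIKsh fit recovered 40.5% of 200 probe sets changed by 1 on the log2 scale and 97.5% of those changed by 3, and the line fit 26.5% and 95.5%. The line simulation took its spread from the doxycycline fit and changed 200 of 27856 probe sets, while 52.9% passed in the data. Its recovery therefore does not describe the real comparison of the untreated lines.

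Genes named are the members, members of the fixed lists that passed or had the smallest p, and the 3 genes most like each member. MAP3K14 and markers were added as checks. Members and lists were chosen with earlier results of these data known. Alternatives were pseudocounts of 1 and 16, no filter or a 75th percentile filter, quantile normalization, 1 probe set per gene, the ACTB ratio as a covariate, no block, and each culture left out. Genes of the lists with no probe set of 1 symbol were not analysed here. Promoters are from RefSeq GRCh38.p14. Tables were made with Python 3.11.15 and pandas 2.3.3.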

Additional observations from a re-analysis of the deposited data

Results flagged for a closer look

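Among the 17 tested probe sets, the 4 NIKsh changes with doxycycline were searched for a culture far from the other 3, and chance flags about 1 group in 20. For RAG1 206591_at the log2 change of Z-138 NIKsh#1 was 0.154, far below the other 3, which lay between 1.09 and 1.25. For the other RAG1 set, 1554994_at, that of Maver-1 NIKsh#2 was 0.878, far above the other 3, which lay between 0.07 and 0.14.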

How the results depend on the processing

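The untreated line differences of single probe sets kept direction and call in 326 of 341 pairs of probe set and setting and lost the call in 15, all of DNTT 1566362_at, IGHD 230877_at, IGHM 212827_at, IGHM 215949_x_at or 216557_x_at. The doxycycline changes of RAG1 206591_at, RAG2 and VPREB3 in 6 comparisons and of IGKC 214669_x_at and IGHD 215621_s_at in 2 kept theirs in 291 of 300 such pairs, gained a call in 4 and changed sign in 5. Over all 29 tested probe sets 7 calls were gained, the other 3 being IGHD 230877_at in Z-138 NIKsh (adjusted p = 0.0129) and 217281_x_at in Z-138 NIKsh (0.0486 without Maver-1 NIKsh#1) and in the line difference of the effect (0.0115 without Maver-1 NIKsh#2). The sign changes were VPREB3 in NTC (0.12 without Z-138 NTC, -1.49 without Maver-1 NTC), RAG2 in Maver-1 NIKsh (-0.17 without its NIKsh#2, 0.43 without its NIKsh#1) and, with the ACTB covariate, which left 1 residual degree of freedom, RAG1 and RAG2 in Z-138 NIKsh (-1.59 and -1.08) and RAG2 in the line difference of the effect (-1.30). The cause was not tested. The count over all probe sets in NIKsh (2) was 0 with a pseudocount of 16 or a 75th percentile filter, 5 with 1 probe set per gene, 9 without the replicate block and 0 to 2 with a culture left out. That in Z-138 NIKsh (284) was 183 with no filter, 162 with the stricter one, 0 with the ACTB covariate and 270 to 1509 with a culture left out. That in Maver-1 NIKsh was 0 to 34 with a culture left out. That of the line difference of the effect (4) was 14 with 1 probe set per gene, 0 with the ACTB covariate and 4 to 630 with a culture left out. That of the untreated lines (14733) was 8275 with the stricter filter and 6956 with 1 probe set per gene, both of which test fewer probe sets, and 7584 with the ACTB covariate. The covariate fit kept the 27856 tested probe sets. Its 7584 calls are the background for the member and list counts given above with this covariate. Members called between the untreated lines were 9 of 10 tested with the stricter filter and 7 of 8 with 1 probe set per gene. Beside them stand the 8275 and 6956 of all probe sets given above. How many were tested in all is not given for these settings, so the member counts have no share beside them. Members called with doxycycline were 0 to 1 with a culture left out in Z-138 NIKsh, Maver-1 NIKsh and their difference. Leaving out a culture leaves an arm with 1 culture, assumed to vary like the others. Removing the block changed no member's call with doxycycline. Signals near 12.55 limit RAG1, RAG2 and DNTT in Z-138.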
